A study of Mus musculus with 4 samples.

Results

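The protocadherin genes of the mouse autosomes were examined for DNA copy number in liver cells of the genotype TAK1LPC-KO_RIP3-_-. Members were all autosomal genes whose name on the array starts with Pcdh. There were 11 such names among 20445 autosomal genes tested, measured by 85 probes, all of which passed the spot filter on all 4 arrays. Of the 11, Pcdha1 and Pcdha4-g lie in the protocadherin gene cluster of chromosome 18 and hold 54 probes. The other 9 are non-clustered genes on chromosomes 3, 5, 10, 14 and 18 and hold 31 probes. The 4 samples, named liver cells in the labels, carried a knockout of the kinase TAK1 in liver parenchymal cells (LPC) and of RIP3, and each was hybridised on 1 array against a pool of 4 normal livers. The pool's genotype, the ages and sexes of the animals, what drives the TAK1 deletion, and whether the samples came from separate animals are not given in the labels. P-values therefore reflect no more than sample-to-sample spread, possibly a technical one. The DNA came from fixed, paraffin-embedded sections, and each ratio averages over all cells in them, so that a change in few cells and a small shift in all cells cannot be told apart.

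Protocadherins are calcium-dependent adhesion proteins of the cadherin superfamily, known best from neurons. The clustered ones are arranged as alpha, beta and gamma groups of tandem variable exons, each with its own promoter, and the alpha and gamma groups splice onto shared constant exons. Each neuron uses a small, partly random choice of these exons, and the resulting proteins let a neuron tell its own branches from those of others. The non-clustered ones are single genes spread over the genome, with roles in morphogenesis, axon growth and the inner ear.

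The array names the cluster coarsely. RefSeq (assembly GRCm38, used for names only) holds 57 clustered protocadherin symbols, of which 14 are alpha, 22 beta and 21 gamma genes. The array carries 2 names for all of them. Pcdha1 is a RefSeq symbol, and Pcdha4-g is a RefSeq synonym of Gm37013. Values of single clustered isoforms can therefore not be given by name. Probe positions are known, but no annotation of the array's genome build was used to place them in isoforms or in the alpha, beta and gamma groups.

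Values are log2 ratios of the sample signal over the pool signal, set so that the median of all autosomal probes is 0 on each array. On this scale 3 copies against 2 in every cell would ideally give 0.58, and 1 copy against 2 would lie 1 unit below 0. A gene or probe was called when its ratio differed from 0 with an adjusted p under 0.05 (limma, Benjamini-Hochberg over all autosomal genes or probes) and its mean was at least 0.25 from 0. The pool is the only control, its own spread is not in the test, and dyes were not swapped. Spots well above background made up 84.3% to 89.9% in the channel of the samples and 94.4% to 97.7% in that of the pool. The number of arrays limits the precision. Map3k7, which encodes TAK1, had ratios of 0.47 to 0.77 and Ripk3, which encodes RIP3, of -0.14 to -0.0019. Nothing used here places their probes inside or outside the deleted parts, and the values are no check of the labels.

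Among the 11 protocadherin names, Pcdh8 lay below the pool, Pcdh20 and Pcdh1 lay above it, and 8 were not called. The 3 calls are 27.3% of the members. Over all autosomal genes 35.4% were called, 16.1% higher and 19.3% lower, so the share among protocadherins is no result about the family. At an unadjusted p under 0.05 there were 5 of 11 members, against 49.7% of all genes. The clustered names gave 0 calls of 2, also at an unadjusted p under 0.05. The non-clustered genes gave 2 higher and 1 lower of 9.

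**Figure D1:**
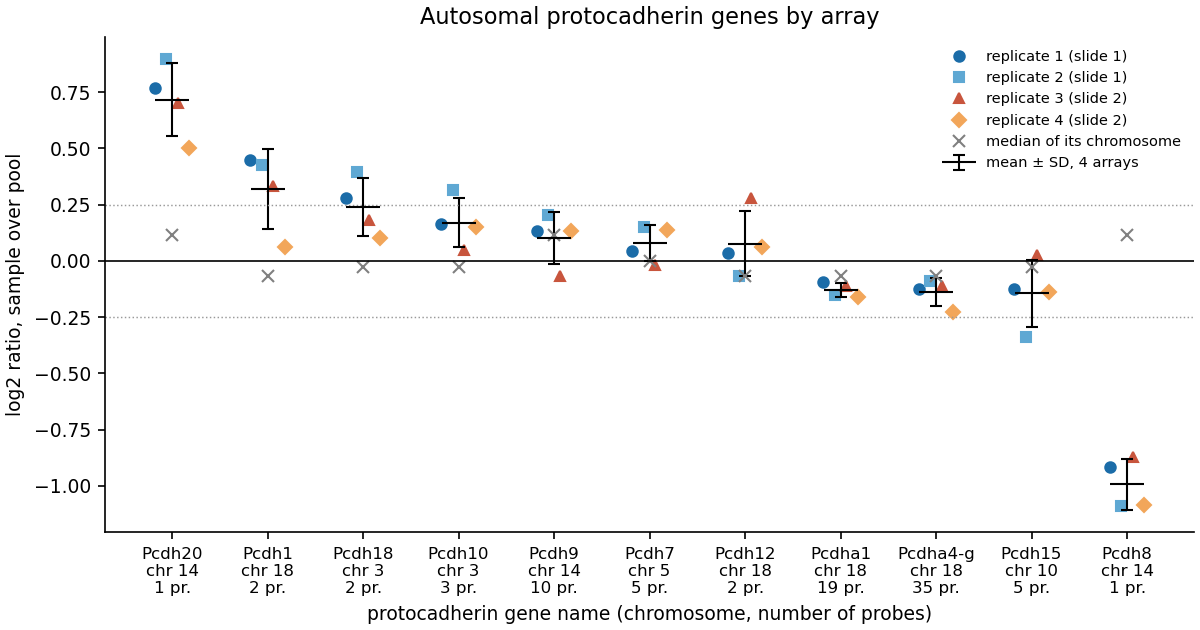
Log2 ratio of sample over pool for the 11 autosomal protocadherin names on each of 4 arrays, ordered by mean, with the mean ± SD over arrays as black bars, the median of the gene's chromosome as a cross, and dotted lines at 0.25 and -0.25. Pcdh8 lies at -0.87 or below on every array and Pcdh20 at 0.50 or above, while Pcdha1 and Pcdha4-g lie between -0.23 and -0.09.

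The values of Pcdh8 and Pcdh20 each rest on 1 probe, and those of Pcdh9 and Pcdh7 differ widely between their probes. The probe sequences behind these values are given as the array's design holds them, 5′ to 3′ with the strand not given in the files, in the order only probe of Pcdh8, only probe of Pcdh20, highest and lowest probe of Pcdh9, and highest and lowest probe of Pcdh7. Letters G and C are in capitals, since base composition is compared with the ratios further on. Positions are on build mm9. The probes of Pcdh9 and Pcdh7 were chosen after their values were seen.
Pcdh8, chr14:80170923-80170970: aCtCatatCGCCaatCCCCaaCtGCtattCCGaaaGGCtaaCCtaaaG
Pcdh20, chr14:88864819-88864878: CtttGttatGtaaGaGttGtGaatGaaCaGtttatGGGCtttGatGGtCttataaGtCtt
Pcdh9 highest, chr14:93517206-93517265: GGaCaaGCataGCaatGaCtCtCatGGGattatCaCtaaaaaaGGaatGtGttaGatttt
Pcdh9 lowest, chr14:94139907-94139966: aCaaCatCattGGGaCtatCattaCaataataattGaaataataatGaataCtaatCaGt
Pcdh7 highest, chr5:58191423-58191482: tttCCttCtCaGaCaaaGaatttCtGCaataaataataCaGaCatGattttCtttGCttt
Pcdh7 lowest, chr5:58420185-58420244: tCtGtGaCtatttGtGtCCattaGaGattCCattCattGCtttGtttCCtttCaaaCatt

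Pcdh8, also named paraxial protocadherin for its part in the early mesoderm, gave the lowest ratio of the family. The samples had -0.92, -1.09, -0.87 and -1.09, all below the pool, with a mean of -0.99 ± 0.11 (SD, n = 4; limma, adjusted p = 0.000713). Of the 8677 genes with 1 probe, 41.8% were called and 1.3% had a mean as low or lower. The 3 nearest probes on each side, the farthest 2037 kb away, had means from -0.24 to 0.28. Within 2 Mb lay 63 other probes with a median of 0.11, so the probes were unevenly spread between the sides. The extent of the low value was not determined. Chromosome 14 as a whole had a median of 0.11. Its probe is 48 bases long, holds 22 G or C letters (45.8%, the highest share among the protocadherin probes) and was well above background in both channels on all arrays. The call was kept under all alternatives tried. Its size was not, with -0.72 after a correction for the GC content of the probe. In the deposited table of log2 values, whose scale was not checked, the size was -1.49.

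Pcdh20, a non-clustered protocadherin also on chromosome 14, gave the highest ratio. The samples had 0.77, 0.90, 0.70 and 0.50, all above the pool, with a mean of 0.72 ± 0.16 (SD, n = 4; limma, adjusted p = 0.00193). Among genes with 1 probe, 2.21% had a mean as high or higher. Its surroundings were less even than those of Pcdh8. The 3 nearest probes on each side, the farthest 1422 kb away, ranged from -0.18 to 0.76 with a median of 0.44. With its chromosome's median taken off, Pcdh20 lay at 0.60 ± 0.17 and remained called (limma, adjusted p = 0.00333). The 60-base probe has a GC content of 33.3%. With normexp background correction the value was 0.49, and Pcdh20 remained called there too (adjusted p = 0.000192).

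Pcdh9, a protocadherin of developing brain and a very long gene, lies next along chromosome 14 and was not called. Its 10 probes span 770 kb, from 93517206 to 94286794. The gene means on the arrays were 0.13, 0.21, -0.07 and 0.14, which straddle 0, with an average of 0.10 ± 0.12 (SD, n = 4; limma, adjusted p = 0.289). The means of its probes ran from -0.39 to 0.85 with an SD of 0.39 between probes, while the SDs of single probes between arrays ran from 0.05 to 0.35. Of the 10, 3 were called higher, 1 lower and 6 not at all, against 36.9% of all autosomal probes called in either direction, 18.2% higher and 18.8% lower. The highest probe had 0.84, 0.90, 0.76 and 0.91 on the 4 arrays, and the next probe in order had a mean of -0.10. The 3 probes called higher were not neighbours of each other. One further probe, from 94090153 to 94090212, was dim in the samples, that is, not well above background, on all 4 arrays. The sign of the gene mean depended on the centring, with -0.01 after centring on the own chromosome and -0.23 after centring on the 8 other probes within 2 Mb (limma, adjusted p = 0.0363, under the size limit).

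On chromosome 18, outside the cluster, Pcdh1 lay above the pool and Pcdh12 did not differ from it beyond the test's threshold. Pcdh1 encodes an adhesion protein of epithelia such as that of the airway. It had 0.45, 0.43, 0.33 and 0.06 in the samples, a mean of 0.32 ± 0.18 (SD, n = 4; limma, adjusted p = 0.0253), with replicate 4 close to the pool. Its 2 probes, within chr18:38356321-38366510, had similar means of 0.34 and 0.30. The call was lost without replicate 1, 2 or 3 (adjusted p = 0.0884, 0.0890 and 0.0746), with normexp, at 0.19, and with slide means as 2 samples (adjusted p = 0.0691). Pcdh12, known as a protocadherin of endothelial cells and also named VE-cadherin-2, had 0.03, -0.07, 0.28 and 0.06. Its mean was 0.08 ± 0.14 (n = 4; limma, adjusted p = 0.454), with a 95% interval of -0.11 to 0.26. Its probes within chr18:38434783-38440797 had means of 0.15 and -0.00086.

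Pcdh18 and Pcdh10 lie on chromosome 3, and both stayed above the pool on every array without being called. Pcdh10, known from axon growth, had 0.17, 0.31, 0.05 and 0.15, a mean of 0.17 ± 0.11 (n = 4; limma, adjusted p = 0.0946). Pcdh18 had 0.28, 0.40, 0.18 and 0.10, a mean of 0.24 ± 0.13 (n = 4; limma, adjusted p = 0.0402), just under the size limit. Both genes were at their highest on replicate 2. Pcdh18 was called when it was centred on its chromosome, at 0.27, on its region, at 0.26, and in the deposited table, at 0.29. The scale of that table was not checked. Pcdh10 was called with regional centring only, at 0.32, where 6 other probes lay within 2 Mb. The 2 probes of Pcdh18 differed, at 0.06 and 0.42, and those of Pcdh10 ran from -0.0037 to 0.32.

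Pcdh7 and Pcdh15 are long genes on chromosomes 5 and 10 that showed no shift past the threshold. Pcdh7, a protocadherin first described in brain and heart, had 0.04, 0.15, -0.02 and 0.14, a mean of 0.08 ± 0.08 (n = 4; limma, adjusted p = 0.363). A single probe set the sign of that mean. It lay at 0.84 ± 0.28, against -0.30 to 0.0064 for the other 4, and the median over probes gave -0.10 for the gene. That probe was dim in the pool on 1 array, and with dim probes left out the gene had -0.13. Pcdh15, a part of the tip links of inner ear hair cells, had -0.12, -0.34, 0.02 and -0.14, a mean of -0.14 ± 0.15 (n = 4; limma, adjusted p = 0.180). All 5 of its probes had a mean below the pool, from -0.37 to -0.03, and its neighbours within 2 Mb had a median of -0.12.

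**Figure D2:**
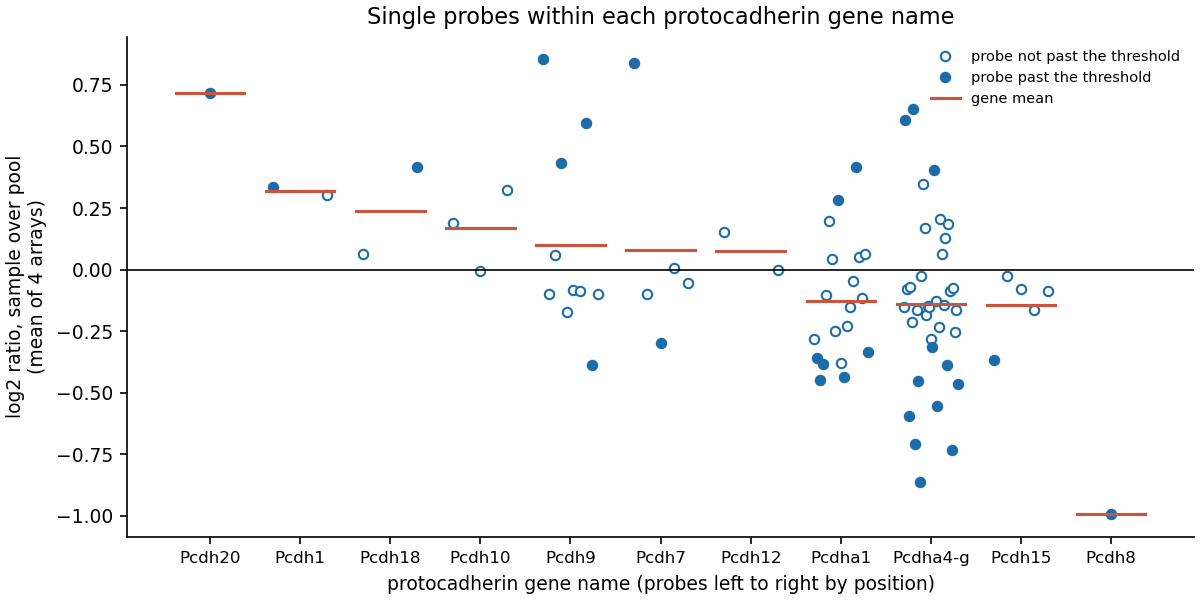
Mean log2 ratio over 4 arrays of each of the 85 probes, in order of position within each protocadherin gene name, filled where the probe was called, with the gene mean as a bar. Probes of Pcdh9, Pcdh7, Pcdha1 and Pcdha4-g scatter on both sides of 0 around gene means near 0.

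The clustered protocadherins of chromosome 18 lay slightly below the pool on every array, near the level of the probes around them, and neither name was called. Their 54 probes span 853 kb, chr18:37104253-37957391, with a median spacing of 9.90 kb. Pcdha1, with 19 probes, had -0.10, -0.15, -0.11 and -0.16, a mean of -0.13 ± 0.03 (SD, n = 4; limma, adjusted p = 0.128). Pcdha4-g, with 35 probes, had -0.13, -0.09, -0.11 and -0.23, a mean of -0.14 ± 0.06 (n = 4; limma, adjusted p = 0.120). Both names were below the pool on all 4 arrays. The 95% intervals were -0.27 to 0.01 and -0.29 to 0.01, and neither reaches 1 copy against 2 in every cell. Only 1 gene of the array had more probes than Pcdha4-g. Of the 185 genes with 10 or more probes, 11.4% were called, against 32.9% of genes with 2 or 3 probes, and the quartiles of their means were -0.07 and 0.12.

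The level of the cluster was set beside its chromosome and its flanks. Medians over probes were taken on each array and then averaged over arrays. That of the 54 probes was -0.14 ± 0.04 (SD, n = 4). The median of 148 probes in the 2 Mb on either side was -0.10 ± 0.03, and that of chromosome 18 outside the cluster was -0.07 ± 0.01. The difference from both flanks was -0.0052, -0.0027, -0.04 and -0.10 on replicates 1, 2, 3 and 4, so that it was largest on replicate 4. From the flank before the cluster it was -0.0095 ± 0.03, which straddled 0 between arrays. From the flank after it the difference was -0.07 ± 0.06. From the remainder of chromosome 18 it was -0.05, -0.09, -0.04 and -0.11, a mean of -0.07 ± 0.03, below 0 on all 4 arrays. These differences were not tested. With regional centring Pcdha1 and Pcdha4-g lay at -0.02 and -0.04.

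**Figure D3:**
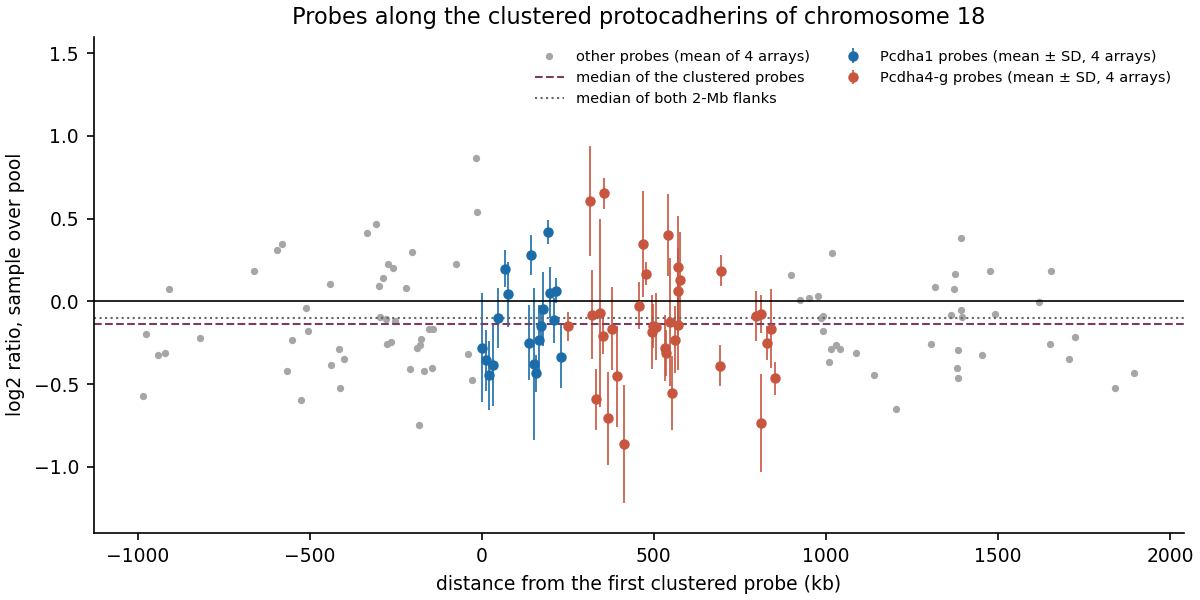
Mean log2 ratio over 4 arrays of probes along the protocadherin cluster, by distance in kb from the first clustered probe, with the SD over arrays for clustered probes, and other probes of chromosome 18 in grey. The dashed line is the median of the clustered probes (-0.14) and the dotted line that of both 2-Mb flanks (-0.10), which lie close together.

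Within the cluster, single probes were called at about the share of all probes. Of 54 probes, 5 were higher and 14 lower, or 35.2% called in all, and 39 had a mean below the pool. The share called higher was 9.26% and the share called lower 25.9%. The same shares were 11.5% and 21.6% in the flanks and 13.9% and 22.4% on chromosome 18 outside the cluster. Of the other named genes of chromosome 18, 28.9% were called. With own chromosome centring the split was 7 higher and 10 lower, where 35.4% of all autosomal probes were called. Leaving out replicate 1 or replicate 2 lowered the count of clustered probes to 12 or 11, where 25.4% and 24.6% of all autosomal probes were called.

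Of the 54 clustered probes, 47 were well above background in both channels on all arrays. Among these, 5 were called higher and 10 lower in the main setting. The other 4 lower calls came from probes dim in the samples on 3 or 4 arrays, and no level is given for them. With all dim probes left out before centring and testing, 6 of the 47 were higher and 14 lower. In that setting 45.2% of the remaining autosomal probes were called. The highest clustered probe, at 37460516 to 37460575, had 0.66, 0.75, 0.53 and 0.67, a mean of 0.65 ± 0.09 (n = 4; limma, adjusted p = 0.00257). The lowest of the 47, starting at 37657012, had -0.79, -0.29, -0.45 and -0.68, a mean of -0.55 ± 0.23 (n = 4; limma, adjusted p = 0.00864). Neighbouring probes could be called in opposite directions. The probe starting at 37638558 had a mean of -0.31 ± 0.14 and the next one, starting at 37644499, a mean of 0.40 ± 0.25 (limma, adjusted p = 0.0321 and 0.0292), a pair chosen after its values were seen. Over all 54 probes, no more than 6 in a row had means below the pool and no more than 2 in a row above it.

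In steps of 200 kb from the first probe, the median over probes was taken on each array and averaged over arrays. It was -0.12 for 16 probes, -0.15 for 13, -0.06 for 17, -0.09 for 3 and -0.30 for 5. The medians of the probe means over arrays were -0.19, -0.15, -0.14, -0.09 and -0.25 for the same steps. The last step, from 37914596 to 37957391, was the lowest. It includes the probe at 37914596 to 37914655, which was dim in the samples on all 4 arrays. Without that probe, an alternative chosen after seeing the data, the median of the step was -0.24 ± 0.09. The other 4 probes had means from -0.47 to -0.08, and 1 of them was called.

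Probe values repeated between arrays and between slides. Replicates 1 and 2 shared 1 slide and replicates 3 and 4 another. Across the 54 clustered probes the correlation between pairs of arrays was 0.49 to 0.76, against 0.61 to 0.70 across all autosomal probes. Over all autosomal probes it was higher within a slide, at 0.66 to 0.70, than between slides, at 0.61 to 0.63. For the clustered probes the ranges overlapped, at 0.49 to 0.76 within a slide and 0.59 to 0.66 between slides. Across the 31 other protocadherin probes the correlation was 0.67 to 0.79 over all pairs. These correlations are across probes, which share the pool, the dye orientation and the array design, and they are a description. The clustered probe means had an SD of 0.31 between probes, larger than the median SD of 0.20 between arrays. Between the slides, limma called 0% of 20445 genes at an adjusted p under 0.05, while an unadjusted p under 0.05 was found for 10.8%. Among the 11 protocadherins there were 0 by either measure. The slide difference was largest for Pcdh1, at -0.24 (slide 2 minus slide 1, adjusted p = 0.568), with means of 0.20 on slide 2 and 0.44 on slide 1.

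GC content was compared with the ratios, and the clustered probes with each other. The clustered probes held 26.7% to 43.1% GC and the other protocadherin probes 23.3% to 45.8%, with a median of 36.7% in both sets and over all autosomal probes. The correlation of the probe mean with GC content was -0.06 for the 54 clustered probes, -0.36 for the 31 others and -0.13 over all autosomal probes. The 31 others include the probe of Pcdh8, which has their highest GC content and lowest mean, and the correlation without it was not computed. Over all autosomal probes the median ratio was 0.0081 at 35 to 40% GC, -0.17 at 40 to 45% and -0.29 at 45 to 50%, the range that holds the probe of Pcdh8. Among the 1431 pairs of clustered probes, the longest stretch of letters shared on either strand was 12 bases. Matches of the probes to other exons of the cluster were not tested.

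**Figure D4:**
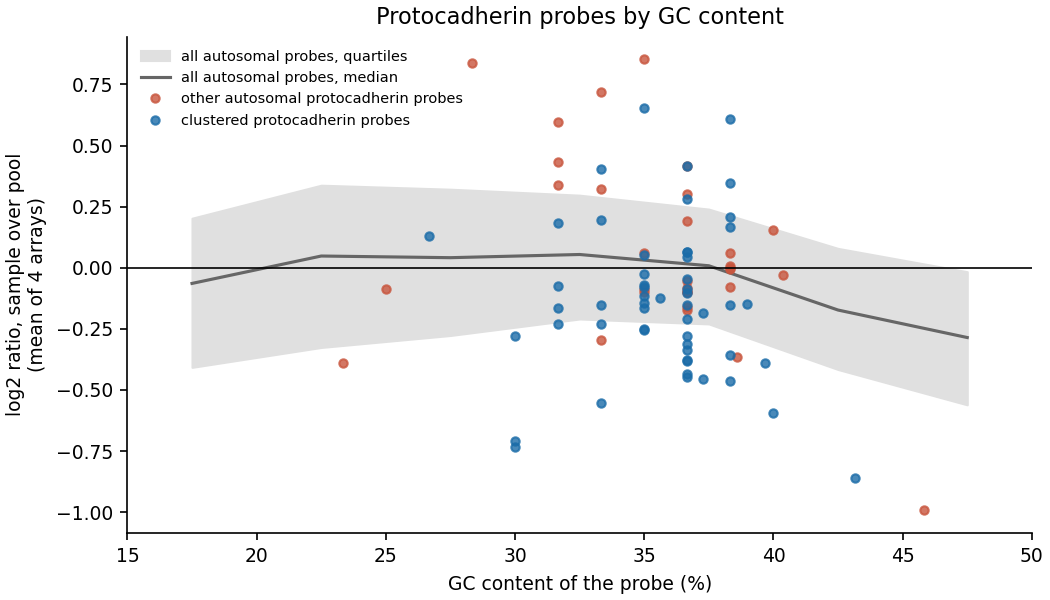
Mean log2 ratio over 4 arrays against the GC content of the probe in percent, for clustered protocadherin probes (blue) and other autosomal protocadherin probes (red), over the median and quartiles of all autosomal probes in 5% steps (grey). The clustered probes lie mostly between 30 and 40% GC, and the probe of Pcdh8 at 45.8% is the lowest point.

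Other genes of the cadherin superfamily moved both ways. Of 50 listed genes 43 were measured, and 3 were higher, 7 lower and 33 not called (23.3% called, against 35.4% of all genes), with a median of -0.04 against -0.01 over all genes. With dim probes left out the split was nearly even, at 8 higher and 9 lower, where 7369 of 18716 genes were called over all. Cdh2, encoding N-cadherin and also on chromosome 18, had 0.50, 0.41, 0.15 and 0.33, a mean of 0.35 ± 0.15 (n = 4; limma, adjusted p = 0.0148). Cdh11 had 0.39 ± 0.20, and Clstn2, a calsyntenin of synapses, 0.33 ± 0.18 (adjusted p = 0.0154 and 0.0244). The probe means ranged from -0.12 to 0.80 for Cdh2, from 0.16 to 0.61 for Cdh11 and from -0.02 to 1.19 for Clstn2. The lowest were Cdh26, Cdhr2 and Cdh17, a cadherin of intestine, at -0.64 ± 0.11, -0.63 ± 0.31 and -0.57 ± 0.42 (adjusted p = 0.00177, 0.00863 and 0.0269). The slides stood apart for Cdh17, which had -0.27 and -0.16 on slide 2 against -0.83 and -1.01 on slide 1, and for Cdhr2, which had -0.36 on both arrays of slide 2 against -0.87 and -0.92 on slide 1. The calls of Cdh2, Cdh11 and Clstn2 were lost without replicate 1 and without replicate 2, where 0 list members were higher and 5 lower. Over all genes 5533 and 5464 of 20445 were called without these replicates. Of the 10 measured members on chromosome 18, the desmosomal cadherin Dsg4 was the only other one called, at -0.33 ± 0.19 (adjusted p = 0.0252), and is named after its value was seen.

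Genes known to regulate clustered protocadherins or to act after them moved both ways. Of 27 listed 26 were measured, and 4 were higher, 3 lower and 19 not called (26.9% called, against 35.4% of all genes), with a median of 0.03. The split was 3 higher and 4 lower with mode centring and 3 higher and 5 lower after GC correction. Over all genes it was 2791 higher and 4356 lower with mode centring, and 3227 and 3494 after GC correction. Rest, a repressor of neuronal genes, had 0.86, 0.73, 0.76 and 0.69, a mean of 0.76 ± 0.07 (n = 4; limma, adjusted p = 0.00103). Ptk2, encoding focal adhesion kinase, had 0.33 ± 0.10 and Ehmt1, a histone methyltransferase, 0.28 ± 0.11 (adjusted p = 0.0114 and 0.0204). The probes of Ptk2 ranged from -0.46 to 0.97, those of Ehmt1 from 0.07 to 0.47 and those of Rest from 0.59 to 0.93. Ehmt2, the partner of Ehmt1, had -0.61 ± 0.17, the cohesin subunit Smc3 -0.27 ± 0.17 and the small GTPase Rac1 -0.26 ± 0.16 (adjusted p = 0.00310, 0.0423 and 0.0375). The 2 probes of Smc3 had means of -0.53 and -0.0076, those of Ehmt2 -0.83 and -0.38, and those of Rac1 -0.34 and -0.19. Leaving out replicate 3 or replicate 4 gave 3 calls each, where 5834 and 5974 of all 20445 genes were called.

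Of 59 other named genes within 2 Mb of the cluster, 6 were higher, 13 lower and 40 not called, with a median of -0.11. The share called was 32.2%, near the 35.4% of all genes. The balance turned with the centring, at 10 higher and 7 lower when centred on the own chromosome and 11 higher and 5 lower when centred on the region. Such a turn is in part built into the subtraction. The median was -0.07 for chromosome 18 outside the cluster and -0.10 for both flanks, which hold these genes. Over all genes these settings gave 3013 higher and 3699 lower, and 3063 higher and 3231 lower. The highest were Snhg4 at 0.71 ± 0.09, Gm5820 at 0.32 ± 0.18 and Ndufa2, a subunit of respiratory complex I, at 0.30 ± 0.22. The lowest were Wdr55 at -0.75 ± 0.20, AK146021 at -0.51 ± 0.09 and Tmco6 at -0.41 ± 0.14 (n = 4; limma, adjusted p of the 6 genes no higher than 0.0460). Each of the 6 rests on 1 probe. Leaving out replicate 1, 2 or 4 gave 10, 8 or 8 calls, where 5533, 5464 and 5974 of all 20445 genes were called.

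**Figure D5:**
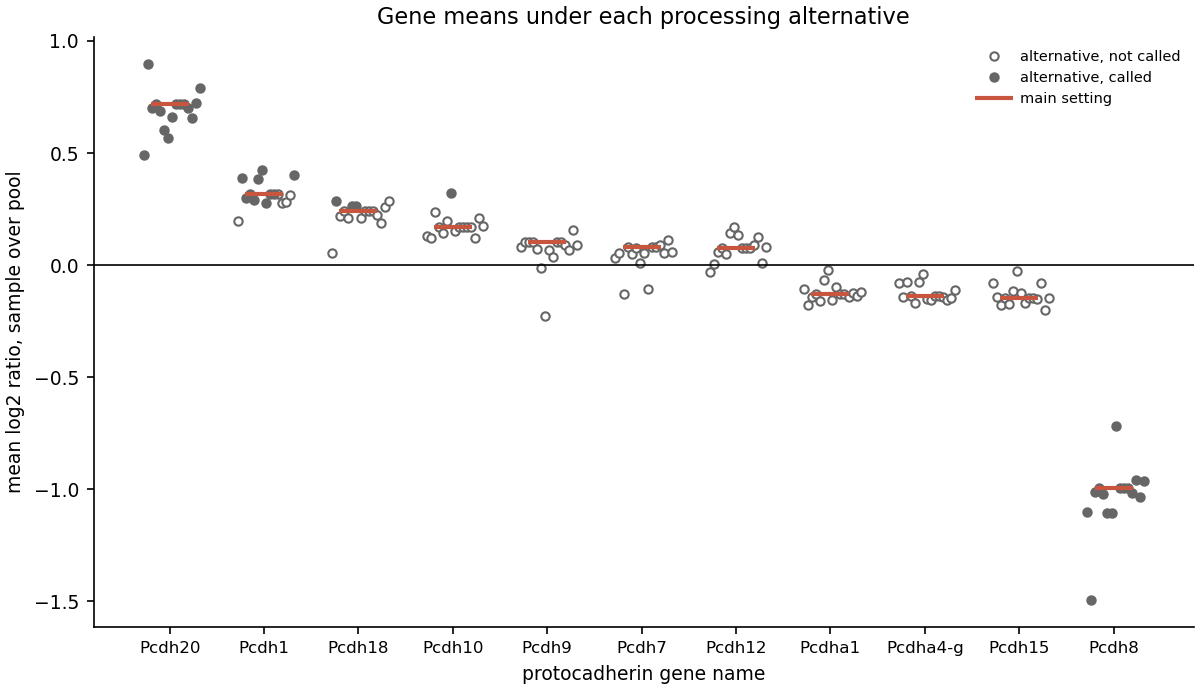
Mean log2 ratio of each protocadherin name in the main setting (red bar) and under 15 processing alternatives (circles, filled where the gene was called; left-out replicates included). Pcdh20 and Pcdh8 are called throughout, Pcdh1 in 10 of the 15, and Pcdha1, Pcdha4-g and Pcdh15 stay below 0 and are never called.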

How the data were processed

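DNA from sections of fixed liver was extracted with a Qiagen kit and 250 ng labelled with an Enzo kit, per the labels' protocols. Samples carried Cy5 and the pool Cy3. The deposited intensity values come from Agilent Feature Extraction 10.10.1.1 and were background-subtracted, detrended and linearly dye-normalised, per the file headers. The deposited log10 ratios matched the ratios taken here to within 0.001 log2 on all spots without surrogate values. A deposited table of values, taken as log2 ratios, served as an alternative. Its direction was read from its correlation with the same arrays (0.91 to 0.92), which cannot show its scale. Its normalisation stays unknown, and its column medians were -0.04, 0.03, 0.05 and 0.01.

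Spots that were controls or carried outlier flags were removed, the rest averaged per probe, probes per gene, and arrays centred on the median of 52385 autosomal probes. Neither loess nor quantile normalisation was applied. Tests used limma 3.58.1 in R 4.3.3. A run on simulated data drew independent noise for each array. It cannot show how the pool and the dye orientation, shared by all arrays, affect the calls. With 4 arrays the smallest two-sided p of an exact sign-flip test is 0.125. Alternatives changed the background correction, dim and outlier spots, centring, GC content, averaging, slides, replicates and the size limit. Named were all non-clustered members, and up to 3 called genes in each direction from each other list. For the clustered members the rule asked for the highest and lowest of the alpha, beta and gamma groups, which the array's names do not separate, and both names and the extreme probes are given instead. The members and lists were chosen with earlier results of these data known. Tests of single probes were added after the 2 cluster names were seen.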

Additional observations from a re-analysis of the deposited data

Results flagged for a closer look

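Over the 4 arrays, 44 sets of values were examined for 1 array far from the other 3, a check that by chance picks out about 1 set in 20. It picked out 3. The median of the 2 clustered names was -0.19 on replicate 4, against -0.12 to -0.11 on the other arrays. The median of the 31 non-clustered protocadherin probes was 0.10 on replicate 2, against 0.05 on each of the others. AK146021, a gene beside the cluster measured by 1 probe, was -0.37 on replicate 4, against -0.57 to -0.54 on the others.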

How the results depend on the processing

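No paired analysis was possible because there is 1 group. Of the 17 alternatives, Pcdh8 (-1.49 to -0.72) and Pcdh20 (0.49 to 0.90) kept their call in all, Pcdh1 lost it in 6, and Pcdha1, Pcdha4-g and Pcdh15 were called in none. Signs turned for Pcdh12 with normexp (-0.029), for Pcdh7 without dim probes (-0.13) and with the median over probes (-0.10), and for Pcdh9 with own chromosome centring (-0.013) and regional centring (-0.23). None of those genes was called in the main setting or in any alternative. With regional centring 5 non-clustered genes were called against 3, where 6294 of 20442 genes were called over all. The medians of clustered and non-clustered names were then -0.029 and 0.17, against -0.13 and 0.10. With own chromosome centring the clustered median was -0.069 over names and -0.086 over probes, and with normexp -0.090 over probes, against -0.15 in the main setting. These probe values are medians of the probe means over arrays, while the -0.14 given with the flanks is the average of the medians per array. At a size limit of 0.5 the calls were 2383 of all genes, 5 cadherins, 2 regulators, 3 flanking genes, 7 clustered probes and 5 other protocadherin probes. At that limit 16.9% of all autosomal probes were called. With slide means as 2 samples the calls were 6 cadherins, 4 regulators and 6 flanking genes, where 5143 of 20445 genes were called over all. Without dim probes 17 cadherins (8 higher, 9 lower) were called, where 7369 of 18716 genes were called over all. With normexp 3 regulators and 7 non-clustered probes were called, against 6029 of 20445 genes and 36.7% of all autosomal probes. After GC correction 12 flanking genes were called, against 6721 of 20445 genes. Leaving out 1 replicate gave 5464 to 5974 genes, 0 clustered names, 2 to 3 non-clustered genes, 11 to 15 clustered probes, 5 to 9 non-clustered probes, 5 to 11 cadherins, 3 to 6 regulators and 8 to 13 flanking genes. Between 24.6% and 27.1% of all autosomal probes were called with 1 replicate left out. For each of these changes the cause was not tested. Regional centring and the median over probes were not run for single probes. Dim probes and genes with 1 probe limit precision.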

Other observations

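The X-linked protocadherins, outside the autosomal set, lay below the pool with the chromosome they sit on. Pcdh19, a gene known from epilepsy in humans, had -0.95, -0.75, -1.03 and -1.06 over 7 probes, a mean of -0.95 ± 0.14 (SD, n = 4). Pcdh11x had -0.65, -0.51, -0.58 and -0.35 over 5 probes, a mean of -0.52 ± 0.13. The median of 2172 X probes was -0.86 ± 0.02. Pcdh11x was above that median on all 4 arrays, and Pcdh19 was below it on all except replicate 2.

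Cdhr1 and Cdhr2 carried protocadherin names before, as Pcdh21 and Pcdh24 in the RefSeq synonyms. Cdhr2, a brush border cadherin, is described with the cadherins. Cdhr1, a cadherin of photoreceptors, had 0.13, -0.02, -0.23 and -0.04, a mean of -0.04 ± 0.15 (n = 4; limma, adjusted p = 0.712).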
